A study of Homo sapiens with 4 samples.

Results

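Fatty acid metabolism was followed through 39 genes in PC-3M-luc cells, a luciferase-bearing line of human prostate carcinoma with metastatic origin that grows without androgen. The genes were chosen by their known roles in making, elongating, desaturating, activating and oxidizing fatty acids, with earlier results of these data known. All 39 were found among the 22852 gene symbols in the count tables. RNA was sequenced from 2 control libraries, whose cells were transfected with a control RNAi reagent, and 2 LSD1 knockdown libraries, whose cells received RNAi against LSD1. LSD1, the product of KDM1A, is a histone demethylase. All cells came from the same line at passages 17 to 20, were transfected with the same lipid reagent and were collected 72 h later, so every group had been exposed to transfection. Labels call the 2 libraries of a group biological replicates without saying how the cultures were kept apart. The p-values set the difference between groups against the spread between such libraries, which is largely borrowed from other genes. Neither the RNAi sequences nor the number of reagents per target is given in the labels, and the series text speaks of knockout cells where the sample labels describe RNAi.

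Fatty acid synthesis runs in the cytosol. ATP citrate lyase and acetyl-CoA synthetase supply acetyl-CoA, acetyl-CoA carboxylase turns it into malonyl-CoA, and fatty acid synthase builds palmitate, which elongases lengthen and desaturases unsaturate at the endoplasmic reticulum. Oxidation runs mainly in mitochondria, where the carnitine shuttle imports activated fatty acids and a cycle of dehydrogenation, hydration, second dehydrogenation and thiolysis releases acetyl-CoA. Malonyl-CoA inhibits the first step of the shuttle, and prostate carcinomas are known both for raised fatty acid synthase and for use of fatty acids as fuel.

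Library depth, the targeted gene and cell identity were checked first. Counts assigned to genes ranged from 12041283 to 12832064 per library, so that 3 counts corresponded to 0.234 to 0.249 CPM (counts scaled to a common library size). KDM1A counts were 2920 and 2892 under control RNAi and 218 and 234 under LSD1 RNAi, a log2 fold change of -3.72 (standard error 0.0973, edgeR adjusted p = 2.84e-24). Of 10 epithelial and prostate markers, KRT8, KRT18, KRT19, EPCAM and CDH1 passed the filter on low counts, and KRT8, EPCAM and CDH1 rose. The luminal prostate genes KLK3 and KLK2 had 0 counts in every library. Of the 6 adipocyte markers only FABP4 and CIDEC passed the filter, LEP had 0 counts in every library, and the summed level of the list was 14.6 to 15.2 CPM in control and 13.4 to 14 CPM in knockdown libraries. None of the 6 hepatocyte markers passed it, and their highest count in a library was 13. Of 8 leukocyte and erythroid markers CD79A fell and LYZ rose, PTPRC, CD3E and HBB had 0 counts, and the list summed to 3.29 to 4.59 CPM in control and 2.87 to 3.4 CPM in knockdown libraries. Among 8 markers of fibroblasts and endothelium COL1A2 and KDR rose, PECAM1 fell, COL1A1 did not pass and LUM and CDH5 had 0 counts, while the sum was 70.3 to 82 CPM in control and 112 to 113 CPM in knockdown libraries; its part in the values that follow was not tested. In bulk RNA a lower share of cells that express a gene and less RNA of that gene per cell cannot be told apart.

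More fatty acid genes rose than fell after LSD1 knockdown, and the rises lay mostly on the synthesis side. Of the 39 genes, 37 passed the filter, and 11 of these rose, 3 fell and 23 did not pass the test (edgeR quasi-likelihood test, adjusted p under 0.05). The 14 genes that passed were 37.8% of those tested, close to the 36.1% of all 13252 genes tested, so a change as such was no more frequent here than elsewhere. Higher calls made up 29.7% of the 37 genes against 18.2% of all genes, and lower calls 8.11% against 17.9%. The median log2 fold change of the 37 genes was 0.12, beside 0.0023 over all genes. Among 15 tested genes of acetyl-CoA supply, synthesis, desaturation and elongation 7 rose and 0 fell, with a median of 0.24, and 8 did not pass. Among 17 genes of the carnitine shuttle and of mitochondrial and peroxisomal oxidation 3 rose and 3 fell, with a median of 0.11. These were 17.6% in each direction, near the 18.2% and 17.9% of all genes. Values of the 4 libraries did not overlap between groups for 18 genes with higher and 10 with lower knockdown values, where 33.7% and 33.5% of all genes did so, 67.2% in either direction. DESeq2 called 7 of the genes higher and 3 lower, beside 1564 and 1618 of all 13252 genes. Without control replicate 2 or without knockdown replicate 1 the test of edgeR called fewer genes higher, here and over all genes. In both of these fits most of the excess of higher calls over the share of all genes was gone.

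**Figure D1:**
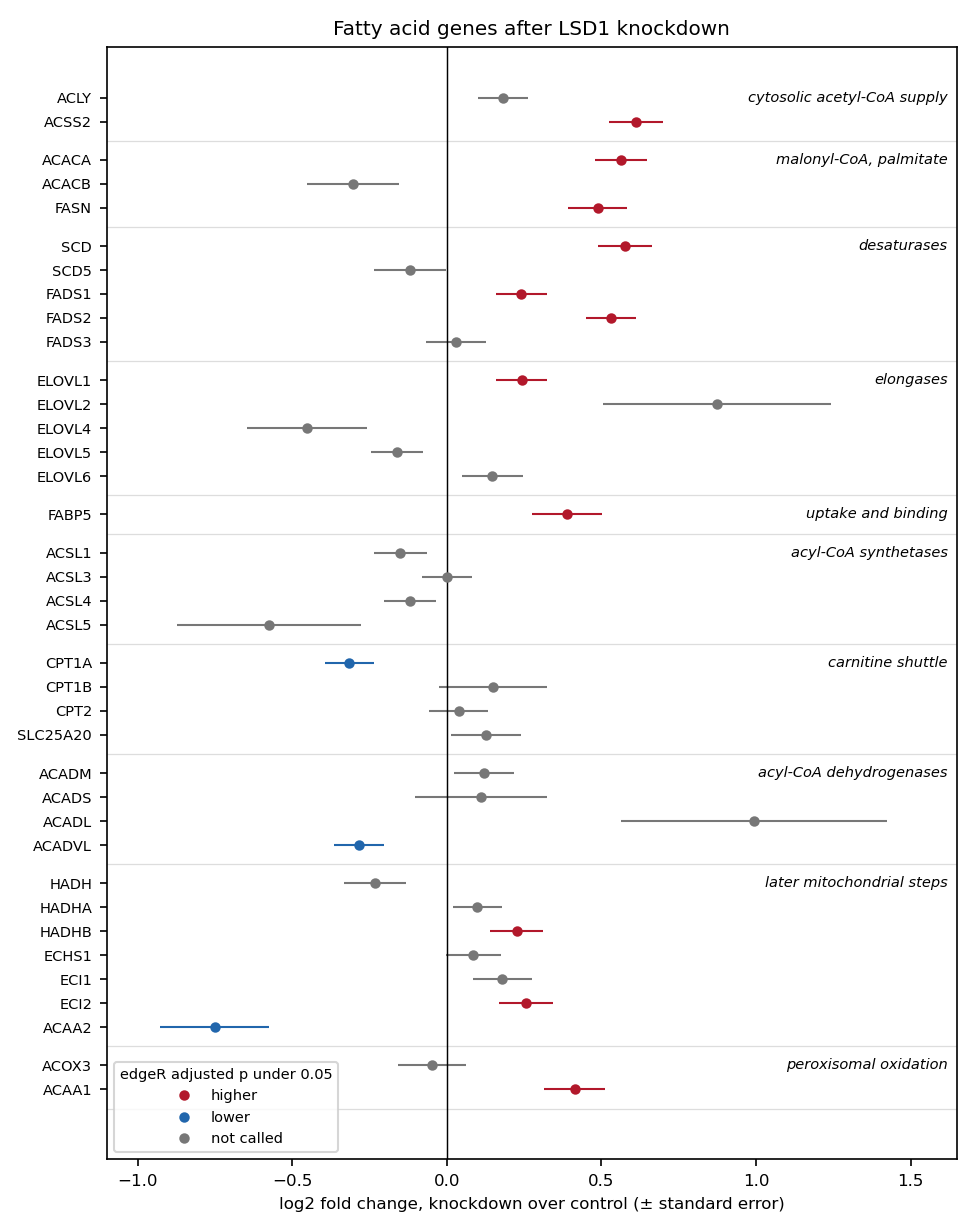
Log2 fold change of knockdown over control (points, with the standard error as bars) for the 37 tested fatty acid genes, arranged by role. The 11 genes that rose reach up to 0.61 for ACSS2, and the 3 that fell, CPT1A, ACADVL and ACAA2, lie between -0.75 and -0.28, while ELOVL2 and ACADL have wide bars and did not pass.

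Both enzymes that supply cytosolic acetyl-CoA had higher values after knockdown, and ACSS2 passed the test. ACSS2, which makes acetyl-CoA from acetate, was at 63.6 and 68.7 CPM in control and 99.1 and 103.1 CPM in knockdown libraries. The groups stood well apart, with a 1.53-fold rise (log2 fold change 0.61, standard error 0.0872, edgeR adjusted p = 1.27e-06). ACLY, which makes acetyl-CoA from citrate, was at 349.5 and 362.9 CPM in control and 391.6 and 415.9 CPM in knockdown libraries. Its groups did not overlap either, but the log2 fold change of 0.18 missed the threshold (edgeR adjusted p = 0.0789).

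Palmitate synthesis showed rises of its main enzymes. FASN, the fatty acid synthase, was among the most abundant of the 39 genes, at 961.4 and 1117 CPM in control and 1305 and 1612 CPM in knockdown libraries. All knockdown values exceeded all control values, although the knockdown pair was also the more spread, and the rise was 1.40-fold (log2 fold change 0.49, standard error 0.0953, edgeR adjusted p = 0.000128). Leaving out knockdown replicate 2 gave the lowest FASN log2 fold change, 0.33, and it still passed (edgeR adjusted p = 0.0202). ACACA, the cytosolic acetyl-CoA carboxylase, was at 185.5 and 213.7 CPM in control and 301.8 and 288 CPM in knockdown libraries, a 1.48-fold rise without overlap (log2 fold change 0.56, standard error 0.084, edgeR adjusted p = 2.76e-06). ACACB, the carboxylase at the mitochondrial surface whose malonyl-CoA restrains the carnitine shuttle, was scarce, at 11.7 and 13.3 CPM in control and 9.58 and 10.6 CPM in knockdown libraries. Its log2 fold change of -0.30 did not pass (edgeR adjusted p = 0.115). Per kilobase of transcript, the ratio of ACACA to ACACB was 15.4 and 15.6 in control and 30.5 and 26.3 in knockdown libraries, which do not overlap.

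Among the desaturases SCD, FADS1 and FADS2 rose. SCD, the stearoyl-CoA desaturase that makes oleate, was at 694.2 and 788.3 CPM in control and 1133 and 1078 CPM in knockdown libraries. Its 1.49-fold rise was larger than the spread within either group (log2 fold change 0.58, standard error 0.0858, edgeR adjusted p = 2.64e-06). SCD5, a related desaturase, was at 23.7 and 27.4 CPM in control and 25 and 22.1 CPM in knockdown libraries, and its groups overlapped. The ratio of SCD to SCD5 per kilobase therefore went from 17 and 16.6 in control to 26.2 and 28.2 in knockdown libraries.

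FADS2 and FADS1, the desaturases that open and continue the conversion of dietary linoleate and linolenate to longer polyunsaturated fatty acids, rose by different amounts. FADS2 was at 206.4 and 217.8 CPM in control and 305.5 and 307.7 CPM in knockdown libraries, a 1.45-fold rise with close replicates (log2 fold change 0.53, standard error 0.0802, edgeR adjusted p = 3.27e-06). FADS1 was at 120.8 and 116.2 CPM in control and 142.4 and 137.6 CPM in knockdown libraries, a 1.18-fold rise (edgeR adjusted p = 0.0207). The FADS1 call was lost when control replicate 1, control replicate 2 or knockdown replicate 1 was left out, at an edgeR adjusted p of 0.0506 to 0.13. The ratio of FADS2 to FADS1 per kilobase was 2.13 and 2.34 in control and 2.67 and 2.79 in knockdown libraries. These neighbouring genes share 490 exonic nucleotides on opposite strands in GENCODE release 29, and no source says whether counting used strand. FADS3, the third gene of the cluster, was at 54.4 and 48.1 CPM in control and 49 and 55.4 CPM in knockdown libraries, with overlapping groups.

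**Figure D2:**
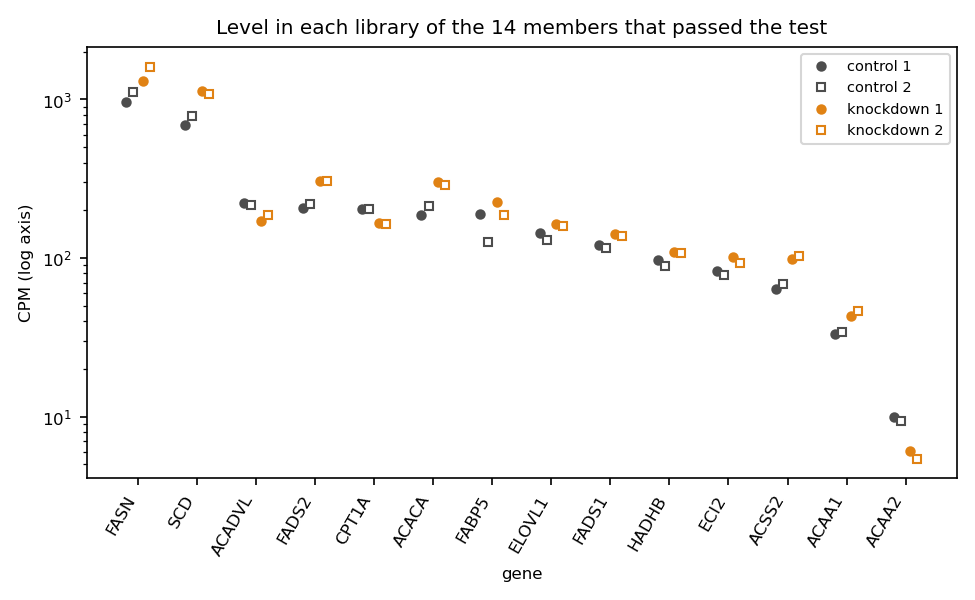
CPM in each of the 4 libraries (log axis) for the 14 fatty acid genes that passed the test, ordered by control level. FASN and SCD lie highest, and the control and knockdown values separate for every gene shown except FABP5, where control replicate 1 at 188.8 CPM exceeds knockdown replicate 2 at 185.5 CPM.

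Elongases were mixed, and 1 of the 5 tested rose. ELOVL1, which lengthens saturated and monounsaturated very long chains, was at 143.9 and 130.1 CPM in control and 165 and 158.9 CPM in knockdown libraries, a 1.18-fold rise (edgeR adjusted p = 0.0216). It missed the threshold in DESeq2 (DESeq2 adjusted p = 0.0536), and the edgeR call was lost without control replicate 2 (edgeR adjusted p = 0.23) or without knockdown replicate 1 (edgeR adjusted p = 0.105). ELOVL5, which acts on polyunsaturated chains, was at 165.2 and 164.9 CPM in control and 156.3 and 139 CPM in knockdown libraries, a log2 fold change of -0.16 that did not pass. It passed at -0.25 when knockdown replicate 1 was left out (edgeR adjusted p = 0.0447) and was -0.08 without knockdown replicate 2 (edgeR adjusted p = 0.604). ELOVL6, which takes palmitate to stearate, had a log2 fold change of 0.15 and did not pass. ELOVL4 was low, at 91 and 83 counts in control and 71 and 59 in knockdown libraries, with a log2 fold change of -0.45 (edgeR adjusted p = 0.0682). That value passed at -0.64 without knockdown replicate 1 (edgeR adjusted p = 0.0425) and was -0.29 without knockdown replicate 2 (edgeR adjusted p = 0.415). ELOVL2 had 16 and 10 counts in control and 25 and 24 in knockdown libraries, too few to settle its log2 fold change of 0.87 (standard error 0.369). ELOVL7 did not pass the filter, with 1 to 5 counts per library.

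The 4 tested acyl-CoA synthetases, which activate fatty acids by joining them to coenzyme A, held no gene that passed. ACSL3, the most counted of them, was at 202.2 and 204.1 CPM in control and 206.4 and 200.1 CPM in knockdown libraries, a log2 fold change of 0.0008 with a standard error of 0.0798. ACSL1, ACSL4 and ACSL5 had log2 fold changes of -0.15, -0.12 and -0.57. Control and knockdown values of these 3 genes did not overlap, but their adjusted p in edgeR lay between 0.133 and 0.277. ACSL5 was scarce, at 31 and 36 counts in control and 21 and 25 in knockdown libraries.

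FABP5, a cytosolic fatty acid carrier, was at 188.8 and 125.3 CPM in control and 226 and 185.5 CPM in knockdown libraries. The groups overlapped, and the 1.31-fold rise (edgeR adjusted p = 0.00733) was not called by DESeq2 (DESeq2 adjusted p = 0.425). Without control replicate 2 its log2 fold change fell from 0.39 to 0.12 (edgeR adjusted p = 0.405), and without knockdown replicate 1 it was 0.23 (edgeR adjusted p = 0.0622). Without control replicate 1 it was 0.72, so that the size of the FABP5 difference rested on which control library was kept. In each fit without a library, the lone library of that group is assumed to vary like the others. FABP5 has processed pseudogenes that could share its reads. CD36, a fatty acid uptake receptor, did not pass the filter, with 4 and 5 counts in control and 8 and 9 in knockdown libraries.

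Of the carnitine shuttle CPT1A fell, and the other genes did not pass. CPT1A, the liver-type carnitine palmitoyltransferase that commits fatty acids to mitochondrial oxidation, was at 205.1 and 203.7 CPM in control and 165.9 and 162.8 CPM in knockdown libraries. Replicates lay close together and the groups far apart, a fall to 0.804 of control (log2 fold change -0.31, standard error 0.0799, edgeR adjusted p = 0.00221). CPT2, which reverses the reaction inside the mitochondrion, was at 40.7 and 39.1 CPM in control and 41.3 and 40.7 CPM in knockdown libraries, and its groups overlapped. SLC25A20, the carnitine carrier, and CPT1B, the muscle-type enzyme, had log2 fold changes of 0.13 and 0.15. CPT1B is uncertain, since 66.4% of its exonic nucleotides belong also to the readthrough gene CHKB-CPT1B, and its level was 6.60 to 8.19 CPM. Per kilobase the ratio of FASN to CPT1A, compared after their values were seen, was 2.86 and 3.35 in control and 4.81 and 6.05 in knockdown libraries.

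Of the acyl-CoA dehydrogenases, which carry out the first oxidation of the cycle, ACADVL fell. ACADVL, which handles very long chains, was at 220.8 and 216.3 CPM in control and 172.3 and 186.7 CPM in knockdown libraries, a fall to 0.822 of control (log2 fold change -0.28, standard error 0.081, edgeR adjusted p = 0.00614). The call was lost without knockdown replicate 1 (log2 fold change -0.23, edgeR adjusted p = 0.0682). ACADM, for medium chains, and ACADS, for short chains, had log2 fold changes of 0.12 and 0.11 and did not pass. ACADL, for long chains, had 12 and 7 counts in control and 14 and 25 in knockdown libraries, and its log2 fold change of 0.99 (standard error 0.431) did not pass. It passed at 1.30 without knockdown replicate 1 (edgeR adjusted p = 0.022) and was 0.56 without knockdown replicate 2 (edgeR adjusted p = 0.472).

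Calls among the later steps of the mitochondrial cycle went in both directions. ACAA2, the mitochondrial thiolase that cleaves off acetyl-CoA, was at 123 and 114 counts in control and 74 and 70 in knockdown libraries. These are 9.90 and 9.38 CPM against 6.06 and 5.41 CPM, a fall to 0.594 of control and the lowest log2 fold change of the 37 genes (-0.75, standard error 0.175, edgeR adjusted p = 0.000963). ECI2, an enoyl-CoA isomerase for unsaturated chains, was at 83.4 and 78.7 CPM in control and 101.1 and 92.7 CPM in knockdown libraries, a 1.20-fold rise (edgeR adjusted p = 0.0196). HADHB, the thiolase subunit of the trifunctional protein, was at 97.3 and 88.9 CPM in control and 109.9 and 108 CPM in knockdown libraries, a 1.17-fold rise (edgeR adjusted p = 0.0361). DESeq2 called neither ECI2 (DESeq2 adjusted p = 0.0662) nor HADHB (DESeq2 adjusted p = 0.0995), and the edgeR calls of both were lost when control replicate 2 was left out (edgeR adjusted p = 0.144 and 0.282) or knockdown replicate 1 (edgeR adjusted p = 0.172 and 0.116). The HADHB call was also lost without knockdown replicate 2 (edgeR adjusted p = 0.071), with no filter on low counts (edgeR adjusted p = 0.0663) and with counts summed over rows (edgeR adjusted p = 0.0706), so 6 of 12 alternatives ended it. HADH, ECHS1 and ECI1, a hydroxyacyl dehydrogenase, a hydratase and an isomerase, had log2 fold changes of -0.23, 0.09 and 0.18 and did not pass.

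HADHA, the partner subunit of HADHB, was at 231.1 and 244.2 CPM in control and 255.1 and 254 CPM in knockdown libraries, a log2 fold change of 0.10 that did not pass (edgeR adjusted p = 0.357). The ratio of HADHA to HADHB per kilobase was 1.60 and 1.85 in control and 1.56 and 1.58 in knockdown libraries. These genes are transcribed away from each other from adjoining starts. The 250 bases before the start of HADHA (RefSeq, GRCh38.p14, chr2:26244633-26244882, minus strand) and those before the start of HADHB (chr2:26244689-26244938, plus strand) have 194 bases in common, read on opposite strands. The counted transcripts start a little further upstream, by 94 bases for HADHA and 44 for HADHB in GENCODE. The sequence is shown because the subunits share it, with the common bases in capitals.
HADHA: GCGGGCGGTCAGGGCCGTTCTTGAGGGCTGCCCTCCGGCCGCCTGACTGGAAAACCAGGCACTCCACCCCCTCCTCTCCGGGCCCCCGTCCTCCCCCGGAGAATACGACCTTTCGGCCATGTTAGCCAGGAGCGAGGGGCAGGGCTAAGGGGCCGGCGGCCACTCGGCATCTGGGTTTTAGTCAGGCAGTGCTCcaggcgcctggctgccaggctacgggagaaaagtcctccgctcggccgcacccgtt

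In peroxisomes ACAA1 rose and ACOX3 did not pass. ACAA1, the peroxisomal thiolase, was at 32.9 and 34.3 CPM in control and 43.3 and 46.1 CPM in knockdown libraries, a 1.33-fold rise without overlap (log2 fold change 0.41, standard error 0.0983, edgeR adjusted p = 0.00116). Its counted row is a noncoding isoform that shares nearly all of its reads with the coding one (99.1% of its count), and that row gave 1.32-fold. ACOX3, an oxidase of branched chains, was at 25.6 and 28.7 CPM in control and 25.3 and 27.1 CPM in knockdown libraries. ACAA1 and ACAA2 thus had opposite calls, while HADHB, also a mitochondrial thiolase gene, rose as ACAA1 did. The ratio of ACAA1 to ACAA2 per kilobase was 5.73 and 6.29 in control and 12.3 and 14.7 in knockdown libraries.

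Summed CPM over the genes of a role followed the abundant members. The 5 desaturases summed to 1099 and 1198 CPM in control and 1655 and 1601 CPM in knockdown libraries. The 3 genes of malonyl-CoA and palmitate synthesis summed to 1159 and 1344 CPM in control and 1616 and 1911 CPM in knockdown libraries. The carnitine shuttle summed to 275.7 and 274.9 CPM in control and 241.1 and 237.5 CPM in knockdown libraries. Over all 17 oxidation genes the sum was 1190 to 1210 CPM in control and 1190 to 1200 CPM in knockdown libraries, while over the 16 genes of the synthesis side it was 3030 to 3310 CPM in control and 4130 to 4370 CPM in knockdown libraries. Oxidation transcripts thus differed little in sum. The sum held falls of CPT1A, ACADVL and ACAA2, rises of ECI2, HADHB and ACAA1, and the 11 genes that did not pass.

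**Figure D3:**
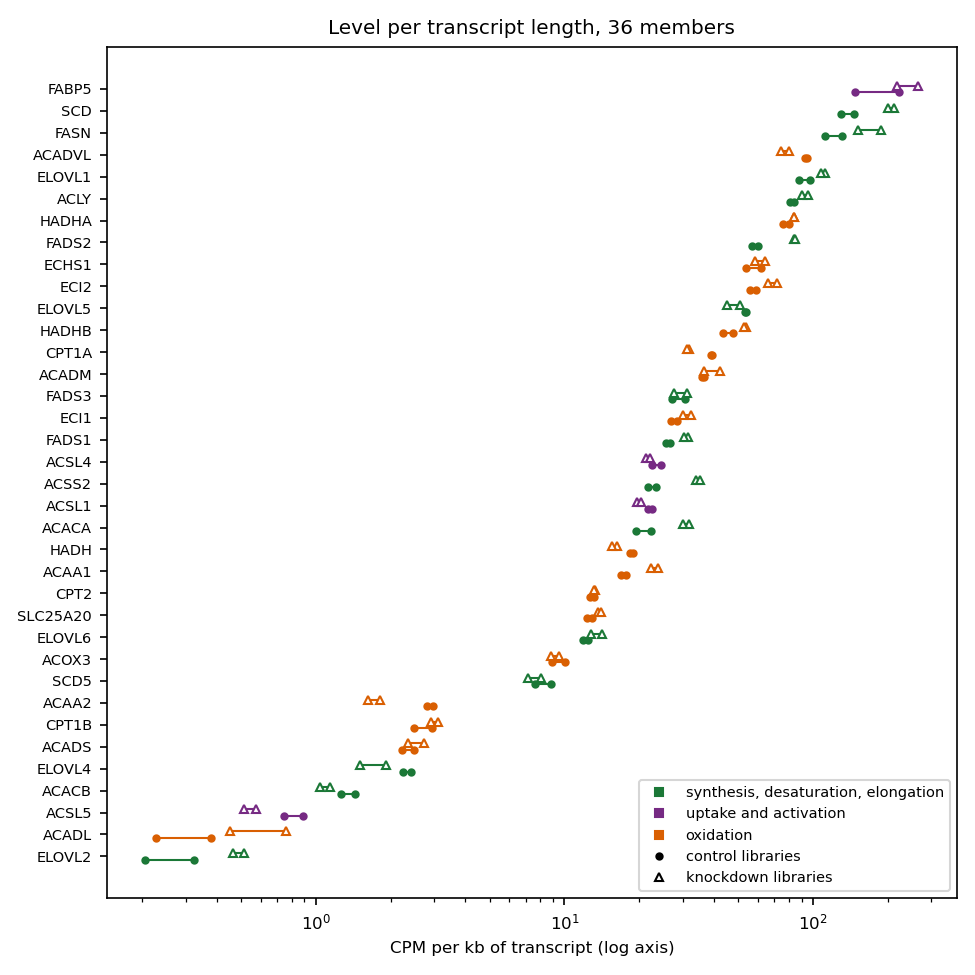
CPM per kilobase of transcript (log axis) in each library for the 36 tested genes with a known transcript length, ordered by mean control level, with filled circles for control and open triangles for knockdown libraries. FABP5, SCD and FASN are the highest at control means of 184, 138 and 121 CPM per kb, and ELOVL2 and ACADL are the lowest at 0.264 and 0.303.

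Per kilobase of transcript, the level in control cells ran from 0.264 for ELOVL2 to 184 for FABP5, and the order of the top genes did not follow the sides of metabolism. ACADVL at 94.1, ELOVL1 at 92.8, ACLY at 82.1 and HADHA at 78.3 CPM per kb followed FABP5, SCD and FASN. ACADVL and ELOVL1 did not differ beyond their replicate spread, since the ELOVL1 control libraries differed by more than the distance between their means. In knockdown cells ELOVL1 stood at 110 and ACADVL at 77.3 CPM per kb. ACSL3 has no level per kb because no GENCODE transcript cites its counted accession.

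Upstream sequences of the members were searched for short promoter motifs. RefSeq (GRCh38.p14) gave 1 window of 250 bases before a gene start for 35 of the 39 genes, and FASN, CPT1B, ACAA1 and FABP5 were not matched. Bases after the start were found near the 5′ end of a GENCODE transcript of the gene for 31 of the 35. The start in the table was not always that of the counted transcript: of 34 genes where both were known, 23 had the counted start within 250 bases of it. ACSS2, ACACA and FADS2, which rose, and CPT1A, ACADVL and ACAA2, which fell, were not among these 23, so the windows do not allow a comparison of genes that rose with genes that fell. Over all 35 windows and both strands, 10 held the NF-Y box CCAAT, 28.6% against 35.4% of 10603 tested genes, and 26 held the GC box GGGCGG, 74.3% against 66.7%. Among the 23 windows, 8 held CCAAT and 21 held GGGCGG. Where the counted start lies before the start of the table, part of the window is transcribed. All CCAAT boxes of HADH and ELOVL5 lie in that part. The E-box CACGTG was found in ELOVL4 and ELOVL5, 5.71% against 8.97%. The sterol regulatory element searched as TCACNCCAC was found in 0 of the 35 and in 0.83% of tested genes. Sequences are shown for SCD and ELOVL1, which rose, hold CCAAT and have the counted start, respectively, 109 and 7 bases before the start used here. Capitals mark any of these motifs on either strand, and 2 bases of ELOVL1 belong to both a CCAAT and a GC box. SCD lies at chr10:100346983-100347232 on the plus strand and ELOVL1 at chr1:43368012-43368261 on the minus strand.
SCD: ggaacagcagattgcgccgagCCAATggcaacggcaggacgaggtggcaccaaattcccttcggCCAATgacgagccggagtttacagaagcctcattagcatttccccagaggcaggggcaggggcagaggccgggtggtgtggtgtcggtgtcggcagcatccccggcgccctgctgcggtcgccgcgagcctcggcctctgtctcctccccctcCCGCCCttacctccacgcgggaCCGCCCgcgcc
ELOVL1: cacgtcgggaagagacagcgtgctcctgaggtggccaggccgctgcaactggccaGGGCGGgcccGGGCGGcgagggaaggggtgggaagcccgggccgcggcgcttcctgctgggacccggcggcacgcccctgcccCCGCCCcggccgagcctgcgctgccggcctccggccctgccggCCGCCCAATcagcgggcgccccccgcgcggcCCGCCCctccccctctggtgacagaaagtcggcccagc

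In SCD the CCAAT boxes begin 229 and 186 bases before the start of the table, which is also before the counted start. Its GC boxes lie after the counted start. The match is to letters only.

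Coding sequences and 3′ ends were also searched for 4 candidate RNAi seed matches, the letters TACTTCG (first), ACTTCGA (second), GCGTACA (another) and CGCGTAC (last), which had been picked on fold changes in these libraries and whose link to the reagents used is not known. Of 36 fatty acid genes searched 11 held one, 30.6%, against 15.6% of 12094 genes. Among the 11 genes that rose, ACACA, FASN, ELOVL1 and ACAA1 did, while ACSS2, SCD, FADS1, FADS2, FABP5, ECI2 and HADHB did not. Among those that fell, ACAA2 did. ACACB, ACSL4, CPT2, ELOVL2, FADS3 and HADHA, which did not pass the test, held one as well. The length of the searched sequences was not taken into account. The part of such matches in these values was not tested.

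Of 23 tested regulators of lipid metabolism 9 rose and 4 fell, with a median log2 fold change of 0.10. These were 39.1% and 17.4%, beside 18.2% and 17.9% of all genes, so the share that fell was near the background. PPARD, a nuclear receptor activated by fatty acids, fell from 104.1 and 94.9 CPM in control to 46.7 and 48.4 CPM in knockdown libraries, to 0.478 of control (edgeR adjusted p = 4.72e-11). PPARA, the related receptor that drives oxidation genes in liver, rose from 11.6 and 12.8 CPM to 24.2 and 22.3 CPM, 1.90-fold (edgeR adjusted p = 9.22e-07). MLX, the partner of the carbohydrate response factors, rose 1.82-fold. INSIG1, which retains the SREBP-SCAP complex in the endoplasmic reticulum and is itself an SREBP target, rose 1.66-fold. The related INSIG2, named after its value was seen, went the other way and fell to 0.597 of control (edgeR adjusted p = 0.000238). SREBF1 and SREBF2, named after their values were seen, encode the SREBP factors that drive lipid synthesis genes. SREBF1 was at 134.3 and 146.5 CPM in control and 147.1 and 173 CPM in knockdown libraries, and its log2 fold change of 0.19 did not pass (edgeR adjusted p = 0.0883). SREBF1 passed with the replicate block (edgeR adjusted p = 0.0415), without a normalization factor (edgeR adjusted p = 0.0376) and, at 0.30, without knockdown replicate 1 (edgeR adjusted p = 0.0143), and was 0.07 without knockdown replicate 2. SREBF2 rose 1.23-fold, from 188.3 and 195.5 CPM to 220.2 and 250 CPM (edgeR adjusted p = 0.00572), a call lost without knockdown replicate 2 (edgeR adjusted p = 0.129).

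Of 15 further synthesis genes 7 rose and 1 fell, 46.7% and 6.67% beside 18.2% and 17.9% of all genes. The list takes in mitochondrial genes as well as cytosolic ones. SLC25A1, ME1, ME2, IDH1, MCAT, HACD1 and MLYCD, the 7 that did not pass, had log2 fold changes of -0.23 to 0.19. CS, the citrate synthase, rose from 404.8 and 420.8 CPM in control to 586.9 and 558.3 CPM in knockdown libraries, 1.39-fold. HACD3 and HSD17B12, which act in the elongation cycle begun by the ELOVL enzymes, rose 1.42-fold and 1.40-fold. The HSD17B12 call was lost without control replicate 2, at a log2 fold change of 0.30. ACSS1, the mitochondrial counterpart of ACSS2, fell from 8.21 and 8.56 CPM to 4.91 and 4.10 CPM, to 0.537 of control (edgeR adjusted p = 0.000362), opposite to ACSS2.

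Of 29 further oxidation genes 11 rose and 5 fell, 37.9% and 17.2%, the latter close to the 17.9% of all genes. DESeq2 called 7 higher and 2 lower, beside 1564 and 1618 of all 13252 genes. Without control replicate 1 edgeR called fewer of them in each direction, and without control replicate 2 fewer higher, as it did over all genes. CRAT, a carnitine acetyltransferase, rose 1.42-fold, from 30.4 and 33.3 CPM in control to 43.1 and 47.4 CPM in knockdown libraries (edgeR adjusted p = 0.000163), and DECR2, a peroxisomal reductase for unsaturated chains, rose 1.43-fold. ACOX2, an oxidase of bile acid intermediates and branched chains, fell to 0.645 of control, a log2 fold change of -0.63 that was -0.42 without knockdown replicate 2.

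Of 20 genes of fatty acid transport, binding and other activation 7 rose and 3 fell, 35% and 15% beside 18.2% and 17.9% of all genes. DESeq2 called 3 higher, beside 1564 of all 13252 genes. Without knockdown replicate 2 edgeR called fewer of them higher, as it did over all genes. ACSF2, a mitochondrial acyl-CoA synthetase, rose from 13 and 14.9 CPM in control to 29.5 and 31.5 CPM in knockdown libraries, 2.19-fold, in contrast to the 4 ACSL genes, of which none passed. SLC27A2, a very long chain synthetase and transporter, rose 1.93-fold. ACOT7, an acyl-CoA thioesterase, fell to 0.633 of control. DBI, the acyl-CoA binding protein, fell to 0.662 of control, from 110.9 and 151.6 CPM to 89.6 and 84.2 CPM. Its log2 fold change of -0.60 was -0.35 without control replicate 2, the library with the higher value.

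Genes of triglyceride synthesis and of lipid droplets were called in both directions, 12 higher and 9 lower of 30 tested, 40% and 30% beside 18.2% and 17.9% of all genes. DGAT1, which completes triglyceride synthesis, rose from 444.1 and 444.6 CPM in control to 701.7 and 730.7 CPM in knockdown libraries, 1.61-fold (edgeR adjusted p = 4.82e-08). AGPAT3, an acyltransferase of phosphatidate synthesis, rose 1.96-fold. PLIN2, the coat protein of lipid droplets, fell from 285.7 and 270 CPM to 167.7 and 179.9 CPM, to 0.626 of control (edgeR adjusted p = 6.61e-08). The counted row of PLIN2 is a noncoding isoform, and values of a coding row are not reported here. ABHD5, the activator of the lipase that opens triglyceride breakdown, fell to 0.573 of control. Other genes of these roles, named after their values were seen, went the other way: the coat protein genes PLIN4 and PLIN5 rose 1.60-fold and 2.53-fold, and GPAM, which opens glycerolipid synthesis, fell to 0.542 of control.

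**Figure D4:**
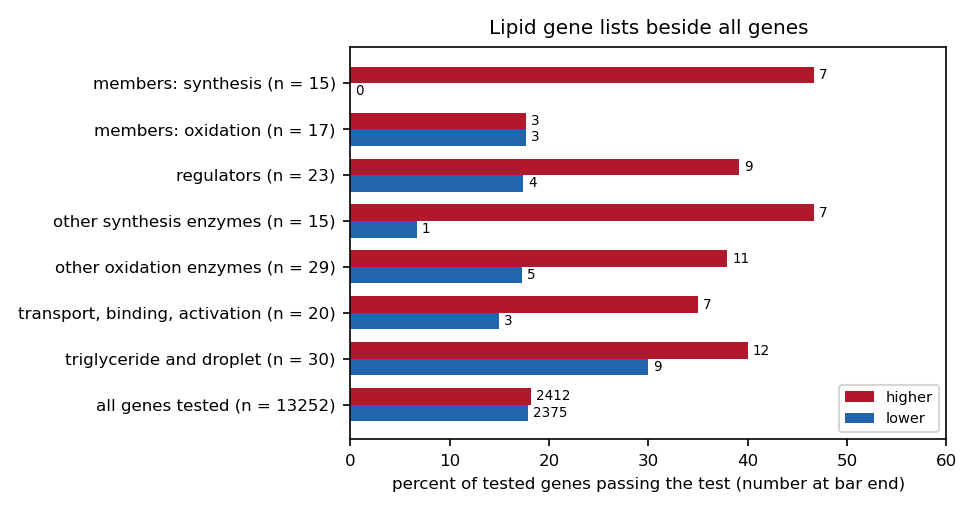
Percent of tested genes that passed the test in each direction (bars from 0, with the number of genes at the bar end) for the 39 fatty acid genes split by side, for 5 lists of other lipid genes and for all genes tested. The synthesis side has 7 genes higher and 0 lower (46.7% and 0%). The oxidation side has 3 and 3 (17.6% each), and all genes 2412 and 2375 (18.2% and 17.9%).

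**Figure D5:**
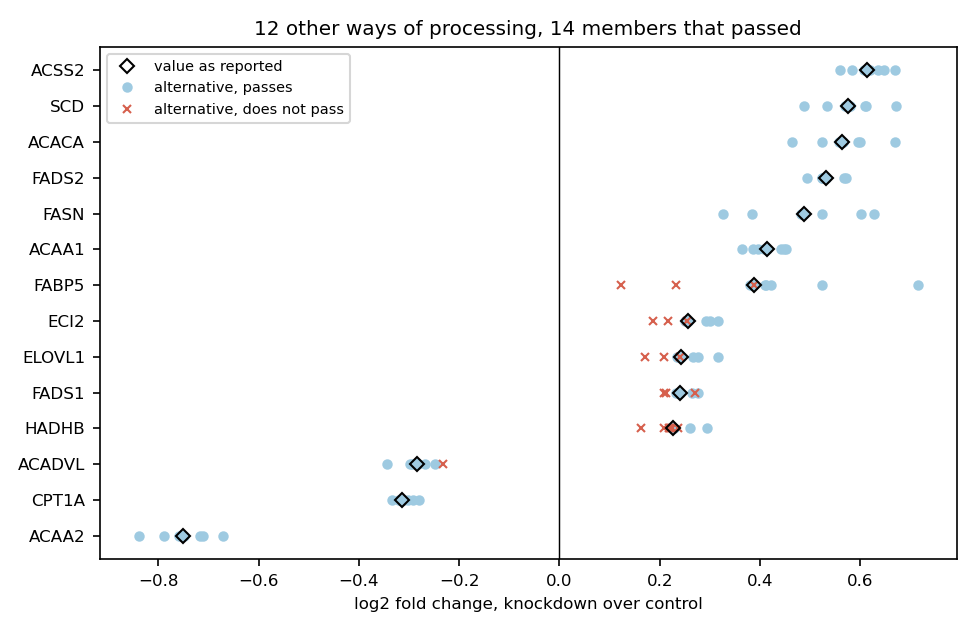
Log2 fold change of the 14 fatty acid genes that passed, as reported (diamonds) and under 12 other ways of processing (circles where the gene still passed, crosses where it did not). ACSS2, SCD, ACACA, FADS2, FASN, ACAA1, CPT1A and ACAA2 passed under all 12, and every one of the 14 kept its direction.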

How the data were processed

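Total RNA from 4 libraries was sequenced, and each library has its own deposited table of raw read counts per RefSeq transcript, without normalization, judged from whole values and unequal totals. TopHat2, HOMER, edgeR, DESeq 1.8.3 and build hg19 stand, without their roles, in the list of tools and builds per the submitters' processing notes. No source used here states the strand or the counting options.

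Each table held 38767 rows, of which 1090, with 1.38% to 1.40% of the counts, matched no symbol and were left out. Isoforms count the same reads again, so the row with the highest mean stood for each symbol. Totals over all rows were 22855909 to 24348184. Counts were scaled by TMM, filtered with filterByExpr (count 10, total 15) and tested with the edgeR quasi-likelihood test (version 4.0.16, R 4.3.3). The model held the group alone, and p-values were adjusted by Benjamini-Hochberg over 13252 genes, with a threshold of 0.05. Common dispersion came to 0.00355 (biological coefficient of variation 5.96%). CPM is printed for both libraries of a group in place of a mean with its SD. Lengths are of GENCODE release 29 transcripts citing the counted accession. The test was checked on simulated data.

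Members and lists were chosen with earlier results of these data known. Genes named were KDM1A, all members, and per other list up to 4 genes that passed with the smallest adjusted p; some of these and some marker genes are not reported here. The files' genome build differs from that of the sequences shown, which were matched by symbol and give 1 start per gene. Alternatives were DESeq2 1.42.0 and its size factors, no normalization factor, no filter, 1 CPM in 2 libraries, limma-voom (limma 3.58.1), the replicate block, sums over rows and leaving out each library.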

Additional observations from a re-analysis of the deposited data

How the results depend on the processing

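Of the 14 fatty acid genes that passed, 8 passed under all 12 alternatives, and of the 23 that did not, 19 passed under none; no tested gene reversed a called direction. DESeq2 gave 7 fatty acid genes higher, of which 1 was an oxidation gene, and 1564 of all genes higher. Leaving out 1 library at a time gave 6 to 10 fatty acid genes higher and 3 to 4 lower, 5 to 7 synthesis genes higher and 0 to 2 lower, and 1 to 3 oxidation genes higher and 2 to 3 lower. Over all genes it gave 1784 to 2008 higher and 1870 to 2018 lower, and -3.73 to -3.71 for KDM1A. ACLY passed without a normalization factor. No scaling moved the median of all genes by more than 0.1. Labels give the groups the same replicate numbers but no shared origin, and deviations of same-numbered libraries correlated at 0.138 over 10938 genes. With the replicate block 12 fatty acid genes were higher and 4 lower, ACLY and ELOVL4 being added, so that 1 synthesis gene was lower, and 2634 and 2637 of all genes were called. The causes of these differences were not tested. With 2 libraries per group, the spread behind each p-value is largely borrowed from other genes, and scarce genes such as ELOVL2 and ACADL have wide errors.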

Other observations

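Separate rows of a gene, which count overlapping sets of reads, mostly gave the same fold. For ACACA the 5 rows lay between 1.48-fold and 1.5-fold of knockdown over control means. CPT1A has a second row with 47.5% of the count of the first, and it stood at 0.856 of control where the first stood at 0.804. The second SCD5 row, with 36.3% of the count, stood at 0.819 of control and the first at 0.922. ELOVL5 has a row with 15.6% of the count of the first, at 0.922 of control against 0.895. These row values are ratios of means without a test.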
